A study of Homo sapiens with 9 samples.

Results

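The BCL2 family decides whether the mitochondria of a stressed cell release cytochrome c, and its 10 members that are most often named as regulators of anoikis were followed here in breast cancer cells kept attached or held in suspension. The members were chosen by symbol, as the rows *BCL2*, *BCL2L1*, *MCL1*, *BCL2L11*, *BMF*, *BBC3*, *PMAIP1*, *BIK*, *BAX* and *BAK1*, and all 10 were found among the 59452 genes of the gene table. The data were 9 bulk RNA-seq libraries of MDA-MB-453, an established human breast cancer cell line that the labels call triple-negative and of wild-type genotype. The first group of 3 libraries came from attached cells with vehicle (DMSO), the second group of 3 from cells in forced suspension on plates coated with poly-HEMA, again with vehicle, and the third group of 3 from suspended cells with 10 µM AT-0174, the study's dual inhibitor of the tryptophan-catabolizing enzymes TDO2 and IDO1. All cells grew in DMEM with serum and were taken at 48 hours, the replicates were described as biological triplicates, and there were no attached cells with AT-0174, so that the compound was compared only in suspension. All samples derive from 1 cell line, and a library reports the RNA of a whole culture, in which fewer cells of a type and less RNA per cell cannot be told apart.

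Anoikis is the apoptosis of epithelial cells that have lost contact with matrix. Pro-survival members (*BCL2*, *BCL2L1*, encoding BCL-XL, and *MCL1*) hold the effectors BAX and BAK1 in check at the outer mitochondrial membrane. BH3-only members (*BCL2L11*, encoding BIM, *BMF*, *BBC3*, encoding PUMA, *PMAIP1*, encoding NOXA, and *BIK*) bind the groove of the pro-survival proteins through a short helix, the BH3 domain, and BIM and BMF are the members best known from detached mammary epithelium. Much of their control acts on the proteins, which RNA does not report.

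The BH3 core is a stretch looked for in all 10 genes, and its coding sequence is shown because BH3-only members bind pro-survival proteins through the BH3 domain. It was searched in the reading frame of each gene's canonical transcript in GENCODE 44 as a leucine codon, 3 codons of any kind, a glycine or alanine codon, an aspartate codon, 1 codon of any kind, and a codon for phenylalanine, isoleucine, leucine, methionine or valine. The capitals mark these 24 bases, with 6 bases of flank on each side, on the coding strand.
BCL2: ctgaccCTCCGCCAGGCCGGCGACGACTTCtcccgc
BCL2L1: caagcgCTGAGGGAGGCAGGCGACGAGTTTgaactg
MCL1: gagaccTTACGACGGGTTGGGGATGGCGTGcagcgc
BCL2L11: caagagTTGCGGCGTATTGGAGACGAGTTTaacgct
BMF: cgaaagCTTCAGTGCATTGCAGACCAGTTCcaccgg
BBC3: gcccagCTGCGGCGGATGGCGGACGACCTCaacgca
PMAIP1: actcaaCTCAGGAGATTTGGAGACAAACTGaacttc
BIK: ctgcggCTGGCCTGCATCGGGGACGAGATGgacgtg
BAX: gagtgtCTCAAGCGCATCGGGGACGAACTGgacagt
BAK1: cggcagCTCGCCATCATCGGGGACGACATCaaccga
Each member held the pattern once, and the 24 bases differed between all 10. The pattern is loose, since 8.7% of 20046 canonical coding transcripts held it, so a match describes these letters and no binding. Among 13 other genes of the family, 6 held it, and *BAD* and *BCL2L2* were among those that did not. What the pattern misses was not tested, so a gene without a match may still hold a BH3 domain.

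On GRCh38 the capitals lie wholly within 1 coding exon of each gene. For the pro-survival genes they are at chr18:63318355-63318378 on the minus strand in exon 2 of 3 of *BCL2*, at chr20:31721928-31721951 on the minus strand in exon 2 of 3 of *BCL2L1*, and at chr1:150578871-150578894 on the minus strand in exon 1 of 3 of *MCL1*. For the BH3-only genes they are at chr2:111150103-111150126 on the plus strand in exon 3 of 4 of *BCL2L11*, at chr15:40104201-40104224 on the minus strand in exon 4 of 5 of *BMF*, and at chr19:47226585-47226608 on the minus strand in exon 3 of 4 of *BBC3*. Those of *PMAIP1* are at chr18:59902673-59902696 on the plus strand in exon 2 of 2, and those of *BIK* at chr22:43127716-43127739 on the plus strand in exon 3 of 5. For the effectors they are at chr19:48955787-48955810 on the plus strand in exon 3 of 6 of *BAX* and at chr6:33575393-33575416 on the minus strand in exon 4 of 6 of *BAK1*.

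Libraries held between 36649997 and 48019126 estimated counts. Genes of the mitochondrial genome took 7.56 to 9.32% of the counts in attached cells, 4.05 to 4.34% in suspended cells with vehicle and 3.73 to 5.51% in those with AT-0174. The line's identity was checked against marker genes: *KRT8*, *KRT18*, *KRT19*, *EPCAM* and *GATA3*, markers of luminal breast epithelium, were between 293 and 1140 TPM (level per transcript length, scaled to 1 total in every library) in the 9 libraries, and *CDH1* was between 20.7 and 29.9 TPM. Of the receptors whose absence defines the triple-negative label, *ESR1* was at most 0.141 TPM and *PGR* at most 0.306 TPM, whereas *ERBB2* mRNA was at 398 to 436 TPM. Of 8 markers of blood, endothelial and stromal cells, *CD3E* and *DCN* were listed at 0 in every library, *PTPRC*, *PECAM1*, *VWF* and *COL1A2* were at most 0.183 TPM, *CD68* was at 1.26 to 4.63 TPM and *COL1A1* at 51.5 to 66 TPM. The 8 summed to 58.8 to 69.6 TPM in attached cells, to 55.5 to 57.8 TPM in suspended cells with vehicle and to 55.3 to 57.9 TPM with AT-0174, nearly all of it *COL1A1*.

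Level per transcript length, in TPM, ranked the members in attached cells as *MCL1* (149 ± 1.7, SD, n = 3), *BCL2L1* (105 ± 3.15), *BAX* (98.3 ± 2.53), *BAK1* (25.6 ± 0.926), *BIK* (22.1 ± 1.75), *BCL2L11* (10.7 ± 0.423), *BMF* (3.35 ± 0.477), *BBC3* (2.01 ± 0.411), *BCL2* (0.381 ± 0.137) and *PMAIP1* (0.152 ± 0.0372). Among the 3 pro-survival members *MCL1* and *BCL2L1* gave nearly all of the RNA, and *BCL2* gave 0.0913% ± 0.0321 of the summed TPM of the 10 members. *BCL2L2*, a pro-survival gene of the family outside the 10, was at 18.9 ± 1.08 TPM in attached cells. In suspended cells with vehicle *BAX* stood at 106 to 118 TPM and *BCL2L1* at 102 to 106 TPM, and with AT-0174 they were at 101 to 108 and 92.7 to 102 TPM. The ranges of these neighbours thus touched with vehicle and overlapped with AT-0174, with *BAX* now the higher in its mean. A *BAX* transcript annotated for nonsense-mediated decay held 9.04, 0 and 12.9 TPM of the gene in the attached libraries. It held 10.4, 20.8 and 17.4 TPM in the suspended vehicle libraries, from 40.4 to 91.1 reads, and 11.6, 4.4 and 8.4 TPM with AT-0174. Its part in this order was not tested. *BAK1* and *BIK* overlapped in suspended cells with vehicle (27.3 to 31.2 against 23.9 to 27.5 TPM), and every other pair of neighbours kept apart in each of the 3 groups. TPM values carry a shift of all genes: the median tested gene was 0.10 higher on the log2 scale in suspended than in attached cells with vehicle, and -0.03 when TPM were computed without the mitochondrial genome. Changes between groups are therefore given on CPM (counts scaled to 1 library size, with TMM factors), where the median of all genes was -0.000. On that scale *BAX* was not higher in suspended than in attached cells with vehicle (log2 fold change -0.06).

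**Figure D1:**
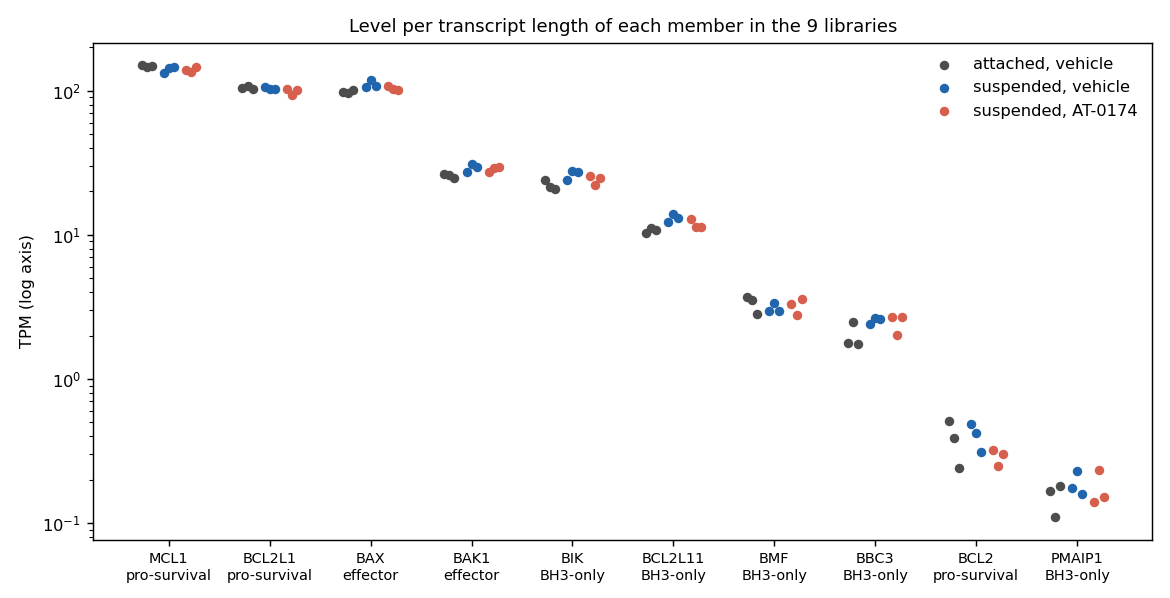
TPM of each member (log axis) in each of the 9 libraries, ordered by the mean in attached cells, with grey points for attached cells with vehicle, blue for suspended cells with vehicle and red for suspended cells with AT-0174 (3 points each). *MCL1*, *BCL2L1* and *BAX* lie near 100 TPM and above, and *BCL2* and *PMAIP1* lie below 1 TPM in all 9 libraries.

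The first comparison, suspended against attached cells with vehicle, asks what loss of attachment did to these genes. *BCL2L11* was higher in suspended cells, *BCL2L1* and *MCL1* were lower, and none of these changes reached 1.5-fold. Of all genes tested, 2.74% both passed an adjusted p of 0.05 and reached 1.5-fold. By edgeR's quasi-likelihood test with Benjamini-Hochberg adjustment over 15528 genes, 3 of the 9 tested members passed an adjusted p of 0.05 (1 higher and 2 lower), where 21.2% of all genes tested passed, 10.4% higher and 10.8% lower. With the mitochondrial genome left out, the same 3 members passed. Beside them, *KRT19* (0.15), of the 6 epithelial markers given above, was higher and *COL1A1* (-0.28) was lower by the same test, and their part in the result was not tested. The same 3 members had groups that did not overlap, against 38.1% of all genes tested. The median log2 fold change of the 9 members was -0.061, beside -0.000 over all genes, so the members as a list lay close to the background.

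*BCL2L11* encodes BIM, which binds every major pro-survival protein. Its CPM were 28.2, 26.9 and 30.6 in the attached libraries and 33.7, 34.2 and 34.9 in the suspended ones with vehicle. Every suspended library was above every attached one, and the suspended libraries were the tighter group (34.3 ± 0.599 against 28.6 ± 1.9, SD, n = 3). The log2 fold change was 0.26 ± 0.055 (SE), or 1.2-fold, with an adjusted p of 0.0061 by edgeR.

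*BCL2L1*, the source of BCL-XL, was at 180, 185 and 179 CPM in attached cells and at 171, 161 and 161 CPM in suspended cells. All 3 suspended libraries were lower, and the replicate nearest to the attached group was the first. The log2 fold change was -0.14 ± 0.0367 (SE), with an adjusted p of 0.0176 by edgeR. *MCL1*, a short-lived pro-survival protein and the most abundant member at the RNA level, was at 259, 263 and 255 CPM in attached cells and at 223, 235 and 241 CPM in suspended cells. These groups did not overlap either, and the log2 fold change was -0.15 ± 0.0333 (SE), with an adjusted p of 0.00719 by edgeR. *BCL2*, at 46 to 85 counts in any library, was at 2.22, 1.85 and 1.18 CPM in attached cells and at 1.45, 1.75 and 1.30 CPM in suspended cells. The groups overlapped, the attached libraries alone spanned the suspended ones, and the adjusted p was 0.538 by edgeR, which leaves a log2 fold change of -0.23 with an SE of 0.234.

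The calls for *BCL2L11* and *BCL2L1* depended on how a gene's transcripts were weighted. With counts scaled by transcript length, the log2 fold change of *BCL2L11* was 0.19 (adjusted p = 0.0895, edgeR) and *BCL2L1* was at -0.12 (adjusted p = 0.079, edgeR), and *MCL1* alone remained called. *BCL2L1* also lost its call without attached replicate 2 (adjusted p = 0.0652), suspended vehicle replicate 2 (0.0785) or suspended vehicle replicate 3 (0.0713, all by edgeR), while its log2 fold change stayed between -0.17 and -0.12 when any 1 of the 6 libraries was left out. *MCL1* passed in all 6 of those fits, with adjusted p between 0.0119 and 0.03, and so did *BCL2L11*, with adjusted p between 0.00453 and 0.0242.

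None of the other BH3-only genes passed the test in suspension. *BIK*, which encodes a BH3-only protein of the endoplasmic reticulum, was at 13.6, 12.3 and 12.2 CPM in attached cells and at 13, 14.5 and 14.4 CPM in suspended cells, with a log2 fold change of 0.14 ± 0.07 (SE) and an adjusted p of 0.177 by edgeR. *BBC3*, which encodes PUMA, was at 2.12, 2.85 and 1.83 CPM and then at 2.45, 2.90 and 2.87 CPM, with a log2 fold change of 0.28 ± 0.18 (SE) and an adjusted p of 0.303 by edgeR. In both genes 1 library of the suspended group lay within the attached range. *BMF*, whose protein is released from the cytoskeleton on detachment, was at 9.28, 9.82 and 7.11 CPM in attached cells and at 8.24, 9.2 and 7.65 CPM in suspended cells, so that the suspended libraries lay within the attached range (log2 fold change -0.06 ± 0.116, SE; adjusted p = 0.756, edgeR). *PMAIP1* held 5 to 12 counts in any library and was below the filter on low counts, so it has no test. Its CPM ranged from 0.138 to 0.232 in attached cells, from 0.137 to 0.204 in suspended cells with vehicle and from 0.136 to 0.287 with AT-0174, and a change was not detectable at this depth.

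Neither effector passed. *BAX* was at 50.3, 52.0 and 52.3 CPM in attached cells and at 50, 50.6 and 47.6 CPM in suspended cells (log2 fold change -0.06 ± 0.0392, SE; adjusted p = 0.29, edgeR), and this value turned to 0.07 with length-scaled counts. *BAK1* was at 38.1, 37.7 and 36.7 CPM and at 37.6, 41.8 and 39.8 CPM (log2 fold change 0.09 ± 0.0515, SE; adjusted p = 0.258, edgeR). Both pairs of groups overlapped.

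**Figure D2:**
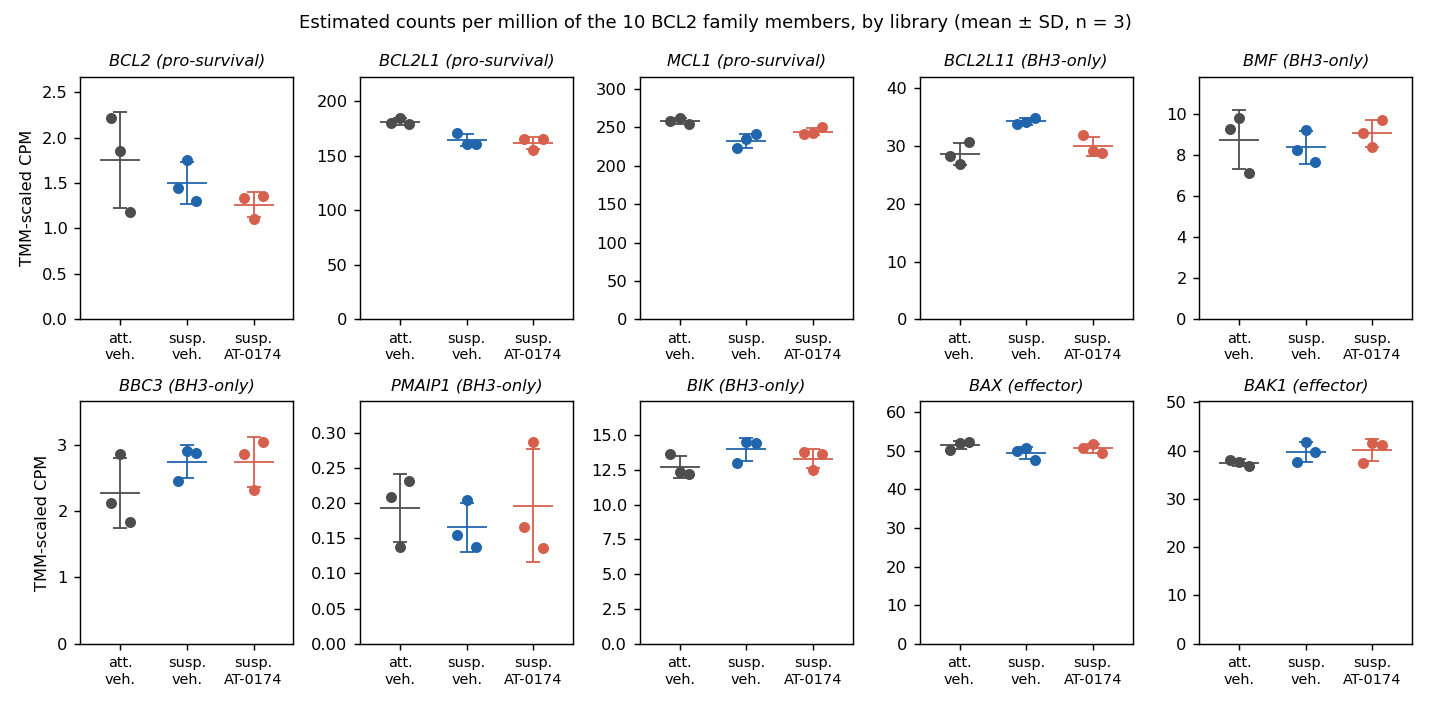
TMM-scaled CPM of the 10 members in each library, 1 panel per gene with its own axis from 0, for attached cells with vehicle (att. veh.), suspended cells with vehicle (susp. veh.) and suspended cells with AT-0174, where horizontal lines and bars are means ± SD (n = 3). *BCL2L11* rises from 26.9 to 30.6 in attached cells to 33.7 to 34.9 in suspended cells with vehicle, and *BCL2L1* and *MCL1* are lower in every suspended library than in every attached one.

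The balance of roles, which no test was run on, was read within a library as a ratio of TPM, on which a shift of all genes has no effect. The summed TPM of the 5 BH3-only genes over that of the 3 pro-survival genes was 0.156, 0.152 and 0.145 in attached cells. It was 0.175, 0.193 and 0.186 in suspended cells with vehicle, and 0.184, 0.17 and 0.171 with AT-0174. All 6 suspended libraries were above the 3 attached ones, and those with and without AT-0174 overlapped. For scale, 38.1% of all genes tested had no overlap on CPM between suspended and attached cells with vehicle. The pro-survival genes gave 61% ± 0.325 of the members' summed TPM in attached cells, 56.9% ± 1.19 in suspended cells with vehicle and 57.8% ± 1.03 with AT-0174 (SD, n = 3). The effectors gave 29.8% ± 0.568, 32.6% ± 0.987 and 32.1% ± 1.14. On CPM neither effector passed between suspended and attached cells with vehicle (adjusted p = 0.29 for *BAX* and 0.258 for *BAK1*, edgeR). *BAX* transcripts annotated for nonsense-mediated decay gave 7.74% ± 6.74, 14.5% ± 4.21 and 8.05% ± 3.22 of its TPM in the 3 groups. By estimated reads they gave 1.81, 3.29 and 1.85%. Most of the BH3-only sum was *BIK* and *BCL2L11* (5.31% and 2.58% of the members' summed TPM in attached cells), so this ratio says little of *BMF*, *BBC3* or *PMAIP1*. *BIK* went from 22.1 ± 1.75 to 26.3 ± 2.02 TPM with vehicle, and *BCL2L11* from 10.7 ± 0.423 to 13.1 ± 0.828 TPM. *BIK*, the larger part, did not pass on CPM (adjusted p = 0.177, edgeR). The ratio of *BCL2L1* to *MCL1* TPM was 0.709 ± 0.0272, 0.739 ± 0.0483 and 0.7 ± 0.0269 in the 3 groups, and that of *BAX* to *BAK1* was 3.85 ± 0.228, 3.76 ± 0.142 and 3.63 ± 0.298, with overlap throughout.

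The second comparison, AT-0174 against vehicle in suspended cells, asks what the inhibitor did to these genes in cells without attachment. It shares its vehicle libraries with the first comparison, so a suspended vehicle library that is high or low moves both. No member passed by edgeR's quasi-likelihood test, where 0.779% of all genes tested passed (121 genes, 0.522% higher and 0.258% lower), and none passed by DESeq2 or limma-voom. At an unadjusted p of 0.05, 1 member passed by edgeR, as did 9.02% of all genes. The members' median log2 fold change was -0.002, beside 0.001 over all genes.

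*BCL2L11* was that member. Its CPM with AT-0174 were 31.8, 29.1 and 28.8, each below the 3 suspended vehicle libraries at 33.7 to 34.9. The log2 fold change was -0.20 ± 0.0541 (SE), with an edgeR p of 0.0032 and an adjusted p of 0.17. In the fit of 29181 genes without a filter on low counts the value was -0.19 with an adjusted p of 0.0277 by edgeR, and it was the only one of 16 alternatives in which the gene passed. With length-scaled counts the change came to -0.11 (adjusted p = 0.818, edgeR).

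*MCL1* was at 241, 243 and 250 CPM with AT-0174, and its groups did not overlap at the precision of the files, the highest vehicle library being at 241 CPM as well. Its log2 fold change was 0.07 ± 0.0333 (SE), with an adjusted p of 0.574 by edgeR. *MCL1* and *BCL2L11* were the only 2 members whose groups did not overlap, against 15.4% of all genes tested. *BCL2L1* was at 165, 155 and 165 CPM with AT-0174, inside and below the vehicle range of 161 to 171 CPM (log2 fold change -0.03 ± 0.0366, SE; adjusted p = 0.896, edgeR). For the remaining 6 tested members adjusted p lay between 0.83 and 0.999 by edgeR, with log2 fold changes from -0.25 ± 0.236 (SE) in *BCL2* to 0.12 ± 0.114 in *BMF*. *BBC3* was at -0.00 ± 0.176, *BIK* at -0.08 ± 0.0688, *BAX* at 0.04 ± 0.0389 and *BAK1* at 0.01 ± 0.0507, and the SE of *BCL2* and *BBC3* show how little the depth at these 2 genes allows to be said.

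The third comparison set suspended cells with AT-0174 against attached cells with vehicle. It changes attachment and compound together and shares libraries with both other comparisons. Of the 9 tested members, 1 passed by edgeR, lower, where 24% of all genes passed (12.2% higher and 11.8% lower), and the members' median log2 fold change was 0.054, beside -0.002 over all genes. The member was *BCL2L1*, at 165, 155 and 165 CPM against 180, 185 and 179 CPM in attached cells. Its groups did not overlap, its log2 fold change was -0.17 ± 0.0366 (SE), its adjusted p was 0.006 by edgeR, and it passed in all 16 alternatives. It too stayed under 1.5-fold, which 3.15% of all genes passed and reached. *MCL1* was lower in every library as well (log2 fold change -0.08 ± 0.0333, SE) but did not pass (adjusted p = 0.086, edgeR). These were the 2 members whose groups did not overlap, against 39.5% of all genes. *BCL2L11*, at 28.8 to 31.8 CPM against 26.9 to 30.6 CPM, overlapped with the attached cells (log2 fold change 0.07 ± 0.0553, SE; adjusted p = 0.423, edgeR). *BCL2* had the lowest value, -0.47 ± 0.236 (SE), with an adjusted p of 0.17 by edgeR. Without attached replicate 3, the attached library in which *BCL2* was lowest at 1.18 CPM, it came to -0.69 with an adjusted p of 0.0457 by edgeR, which made 2 members called.

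**Figure D3:**
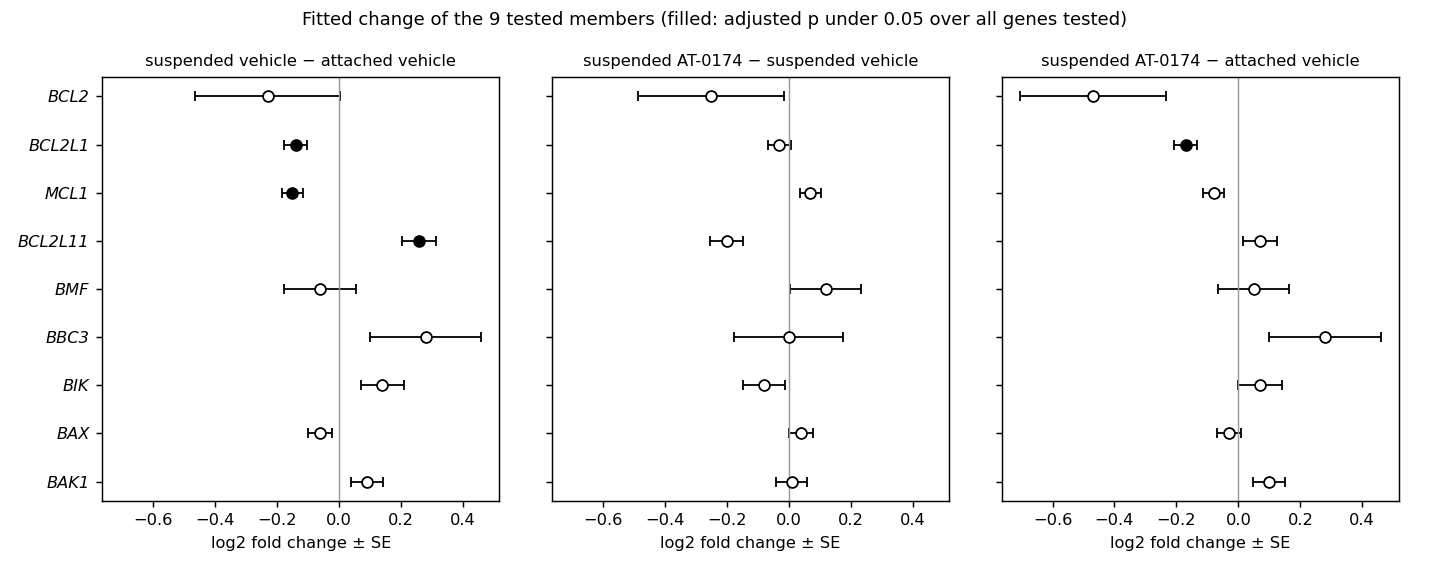
Log2 fold change ± SE of the 9 tested members in the 3 comparisons, from 1 edgeR fit over all libraries, with filled points for an adjusted p under 0.05 over all genes tested. *BCL2L11* is at 0.26, *BCL2L1* at -0.14 and *MCL1* at -0.15 in the left panel, none is filled in the middle panel, and *BCL2L1* at -0.17 is the filled point on the right.

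The gene whose pattern over the 9 libraries was closest to that of *BCL2L11* was *CYB5R4*, a reductase of cytochrome b5, followed by *ATM*, the kinase of the DNA break response, and *USP34*, a deubiquitinase. Their root mean square differences from *BCL2L11* in mean-centred log2 CPM were 0.0493, 0.0499 and 0.0511 over 12521 genes compared, where *BCL2L11* itself varied by 0.127 around its mean.

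Of 13 other genes of the family, 10 were tested and 3 passed in suspended against attached cells with vehicle, where 21.2% of all genes tested passed. *BCL2L2*, the pro-survival gene of BCL-W, was lower (36.5 ± 2.2 against 30.6 ± 1.62 CPM, log2 fold change -0.26, adjusted p = 0.0289, edgeR). *BNIP3* and *BNIP3L*, mitophagy receptors that are induced by hypoxia and related in sequence to BH3-only proteins, were higher by 0.23 (adjusted p = 0.00501) and 0.19 (adjusted p = 0.0283) on the log2 scale, by edgeR. The median of the 10 was 0.055. None passed with AT-0174 in suspension by edgeR, where *BNIP3* was at 64.3 ± 0.984 CPM against 58.8 ± 3.15 CPM with vehicle. Against attached cells *BNIP3* (0.35) and *BNIP3L* (0.22) passed again, where 24% of all genes tested passed. *BCL2A1* was listed at 0 TPM in every library, and *BCL2L10* and *HRK* were at most 0.0568 and 0.0133 TPM.

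Downstream of the effectors, 4 of 21 genes of the apoptosome, the caspases and their inhibitors passed in suspended against attached cells with vehicle, all higher. This was near the 21.2% of all genes tested that passed, and the list median was 0.075. The 4 were *BIRC6*, a large ubiquitin ligase that restrains caspases (92.9 ± 4.73 to 131 ± 10.2 CPM, log2 fold change 0.50, adjusted p = 0.000606, edgeR), *VDAC2*, the channel that holds BAK1 at the mitochondrion (0.18), *CYCS*, cytochrome c itself (0.15), and *VDAC3* (0.12). No caspase gene, *APAF1* or *XIAP* was among them. None of the 21 passed between AT-0174 and vehicle in suspension by edgeR. Between AT-0174 and attached cells 3 passed (*VDAC2* 0.21, *BIRC6* 0.36 and *CYCS* 0.16), where 24% of all genes tested passed.

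Of 11 genes whose products bind the members or set their turnover, 6 passed in suspended against attached cells with vehicle, 4 higher and 2 lower. Over all genes tested 21.2% passed, and the list median was 0.104. *FBXW7*, the receptor of a ubiquitin ligase for MCL1, fell from 93.5 ± 1.54 to 81 ± 3.49 CPM (log2 fold change -0.21, adjusted p = 0.00252, edgeR). *USP9X*, which removes ubiquitin from MCL1, rose from 151 ± 4.91 to 170 ± 5.05 CPM (0.17, adjusted p = 0.0062, edgeR). *TPT1*, which binds MCL1 (0.14), and *MARCHF5*, a ubiquitin ligase of the outer membrane (0.22), were also higher, and *MOAP1*, which binds BAX, was lower (-0.13). None passed with AT-0174 against vehicle by edgeR. Against attached cells 6 passed with AT-0174, where 24% of all genes tested passed. The 6 were led by *TPT1* (0.21), *FBXW7* (-0.19), *MARCHF5* (0.24), *MOAP1* (-0.17) and *DYNLL1*, the dynein light chain that tethers BIM (0.15).

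Among 13 transcription factors known to act on the members, 2 passed in suspended against attached cells with vehicle, where 21.2% of all genes tested passed. *JUN*, an activator of *BCL2L11*, rose from 31.9 ± 1.83 to 42.9 ± 4.45 CPM (0.43, adjusted p = 0.00243, edgeR). *FOXO3*, another activator of *BCL2L11* and of *BBC3*, rose from 78.8 ± 1.78 to 89.1 ± 2.65 CPM (0.18, adjusted p = 0.00816, edgeR). *FOXO1* (-0.26, adjusted p = 0.0623) and *DDIT3* (-0.28, adjusted p = 0.0507, both edgeR) were lower without passing, and 8 of the 13 had a positive log2 fold change. The part of these factors in the levels of the members was not tested. The list median was 0.006. None passed between AT-0174 and vehicle by edgeR, where *JUN* was at 49.4 ± 3.23 CPM with AT-0174 (log2 fold change 0.20, adjusted p = 0.352, edgeR). Against attached cells 4 of the 13 passed with AT-0174, 3 higher and 1 lower, where 24% of all genes tested passed. Among them *JUN* (0.63) and *FOXO3* (0.15) were higher and *DDIT3* was lower (-0.34).

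Of 18 tested genes of a list of targets of the DNA damage response, 6 passed in suspended against attached cells with vehicle, 4 higher and 2 lower. DNA damage itself was not measured. Over all genes tested 21.2% passed, and the list median was 0.011. *GDF15* (0.75), *CDKN1A*, the cyclin-dependent kinase inhibitor p21 (0.36), *AEN* (0.29) and *MDM2*, a ubiquitin ligase (0.15), were higher. *BBC3* and *BAX*, members that the same response is known to induce, did not pass. *GDF15*, a stress-induced cytokine, was the 1 gene of all the lists that passed between AT-0174 and vehicle in suspension, at 25.4 ± 1.15 CPM with vehicle and 39.6 ± 1.32 CPM with AT-0174 (log2 fold change 0.64, adjusted p = 1.8e-05, edgeR). Against attached cells 9 passed with AT-0174, 5 higher and 4 lower, where 24% of all genes tested passed. The 9 were led by *GDF15* (1.39), *CDKN1A* (0.31), *AEN* (0.25), *BTG2* (-0.29) and *PLK3* (0.58).

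The deposited transcript estimates divide each gene's TPM by the protein that GENCODE 44 gives for the transcript, as a description with no test. *BCL2L1* came mostly from transcripts for the 233-residue BCL-XL, at 89.2% ± 1.75 in attached cells, 89.2% ± 1.11 in suspended cells with vehicle and 89.3% ± 0.746 with AT-0174 (SD, n = 3). The 170-residue form, the length of the pro-apoptotic BCL-XS, gave 9.33% ± 1.1, 9.1% ± 0.518 and 9.2% ± 0.683. *MCL1* came mostly from transcripts for the 350-residue protein (86% ± 2.35, 85.4% ± 0.684 and 84.8% ± 1.94), and the 271-residue form gave 5.94% ± 2.21, 5.63% ± 1.19 and 6.2% ± 2.18. These classes overlapped between all 3 groups. *MCL1* transcripts without a coding sequence, a class under 5% in every group, are given because of their values, which were seen before the choice. They gave 2.95, 3.26 and 3.45% in the attached libraries, 4.46, 5.33 and 3.71% in the suspended vehicle libraries and 3.75, 6.08 and 4.27% with AT-0174. No suspended library was as low as any attached one, but the nearest values (3.45 and 3.71%) were close, and such a separation in a class chosen this way carries little weight.

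For *BCL2L11* the estimates were less settled. The 198-residue form, the length of BIM-EL, gave 27.1, 33 and 45.7% of the TPM in the attached libraries. It gave 32, 39.2 and 51.6% in the suspended vehicle libraries and 43.6, 44.8 and 41.4% with AT-0174, with overlap between all groups. The 138-residue form, the length of BIM-L, gave 25.5, 16 and 13.4%, then 10.8, 11.5 and 12%, then 18, 10.9 and 19.3%. Its share was thus lower in each suspended vehicle library than in each attached one. Its own TPM overlapped (2.62, 1.78 and 1.45 in attached and 1.33, 1.6 and 1.56 in suspended vehicle libraries). By estimated reads the class gave 6.79, 3.99 and 5.98% in the means of the 3 groups. Transcripts annotated for nonsense-mediated decay gave 13.3% ± 7.54, 12% ± 1.47 and 16.3% ± 4.04, with overlap. A further 30.5% ± 9.26, 33.1% ± 9.76 and 23.3% ± 1.85 fell to transcripts that GENCODE 44 does not hold. Transcripts that keep the BH3 core printed above gave 56.2% ± 5.83, 54.9% ± 10.9 and 60.4% ± 3.04 of its TPM. For *BCL2L1* they gave 98.6% ± 0.581, 98.3% ± 0.65 and 98.5% ± 0.0669. Transcripts outside GENCODE 44 and those annotated for nonsense-mediated decay were counted as not keeping the core, whatever their sequence.

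*BAX* gave 52.9% ± 5.04, 49.5% ± 2.4 and 55.3% ± 1.73 to the 192-residue protein and 23% ± 0.717, 20.4% ± 2.33 and 21.1% ± 1.99 to the 218-residue form. Transcripts annotated for nonsense-mediated decay gave 9.47, 0.3 and 13.4% in the attached libraries, 9.76, 17.7 and 16.2% in the suspended vehicle libraries and 10.8, 4.51 and 8.86% with AT-0174, with overlap between the groups. *BAX* transcripts without a coding sequence gave 13, 15.2 and 13.9%, then 8.8, 11.2 and 11.8%, then 9.85, 14.2 and 10.6%. They were lower in each suspended vehicle library than in each attached one, and with AT-0174 they overlapped with both groups.

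*BMF* gave 76.2, 88.9 and 75.4% of its TPM to the 184-residue protein in the attached libraries, 94, 91.1 and 91.1% in the suspended vehicle libraries and 94.4, 100 and 89.5% with AT-0174. The attached libraries were all below the suspended ones. By estimated reads in place of TPM the class held 97.8, 99.2 and 99.5% in the means of the 3 groups, so the rest of the TPM rested on few reads. The 129-residue form gave 7.7% ± 3.91, 4.63% ± 4.44 and 1.64% ± 2.84 of the TPM, and transcripts with an incomplete coding sequence 10.6% ± 6.36, 1.3% ± 2.25 and 3.74% ± 3.24. *BIK* has 1 transcript in the files and *BAK1* gave at least 97.8% to its 211-residue protein in every library. For *BCL2*, *BBC3* and *PMAIP1* the shares rest on few reads and jumped between replicates, as in *BBC3*, whose 193-residue form gave 90.9, 83.8 and 38.6% in the attached libraries.

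**Figure D4:**
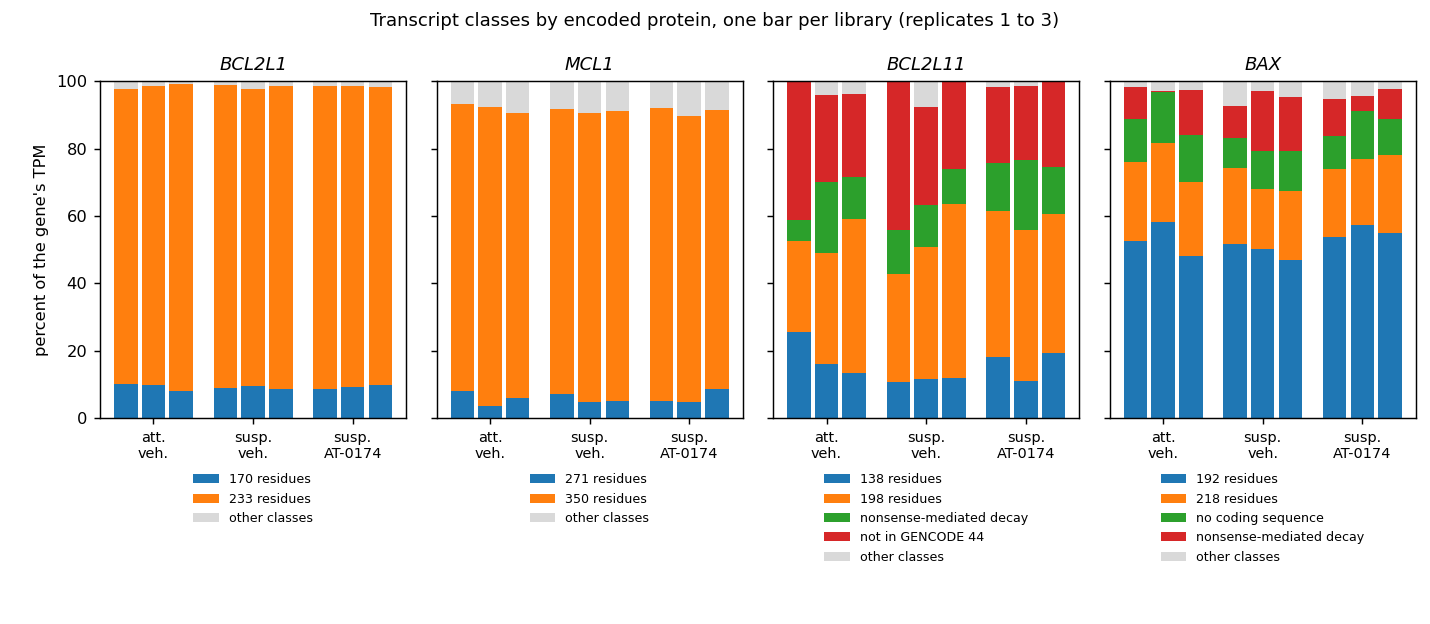
Percent of each gene's TPM by transcript class, named by the length of the encoded protein or by the annotation, with 1 bar per library (replicates 1 to 3 in each group, left to right) for *BCL2L1*, *MCL1*, *BCL2L11* and *BAX*. The 233-residue and 350-residue classes fill most of the *BCL2L1* and *MCL1* bars in every library, while in *BCL2L11* the 198-residue class runs from 27.1 to 51.6% between libraries.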

How the data were processed

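RNA of 9 MDA-MB-453 libraries was sequenced, and the authors made estimated counts and TPM per transcript with Salmon 1.10.1 after trimming with Trim Galore 0.6.7 and alignment with STAR 2.7.9a to GRCh38, then summed the estimated counts by gene. The deposited effective lengths, in bases, were read with them. The kit is given differently in the labels and in the methods, and strand use in counting was not given in the sources used here. The members and lists were chosen with earlier results of these data known.

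Estimated counts were rounded, filtered with filterByExpr, scaled by TMM and fitted for all 9 libraries together with edgeR 4.0.16 (R 4.3.3), with an adjusted p threshold of 0.05 over 15528 genes; SE is the absolute log2 fold change over the root of F. The fit was tested on simulated data. Named besides the 10 members were, per list and comparison, up to 5 genes with the smallest adjusted p among those that passed, and the 3 genes closest to *BCL2L11*, the member with the smallest adjusted p in suspension, among those with at least 50 mean counts. Some genes that this rule or the marker list names are not reported here. Transcript classes under 5% of a gene's TPM in every group were left out, except 1 of *MCL1* chosen after its values were seen, and those of *BCL2*, *BBC3* and *PMAIP1*, which rest on few reads, are mostly not given. Replicate libraries differed by more than sampling noise (chi-square per degree of freedom of 3.06 or more). Alternatives used limma 3.58.1 and DESeq2 1.42.0. Total counts of 36649997 to 48019126 set the precision: 3 counts correspond to 0.0625 to 0.0819 CPM.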

Additional observations from a re-analysis of the deposited data

How the results depend on the processing

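Of 432 refitted log2 fold changes of members (27 values under 16 alternatives each), 407 kept their direction and their side of the threshold. Genes called in suspended against attached cells with vehicle, AT-0174 against vehicle, and AT-0174 against attached cells were 1726, 35 and 2076 with length-scaled counts, 1405, 52 and 1839 at an adjusted p of 0.01, and 425, 26 and 489 with at least a 1.5-fold change. AT-0174 against vehicle gave 239 genes by DESeq2 and 499 with no filter on low counts. Members called were 1 in the first comparison with length-scaled counts, 0 in the first and in the third with a 1.5-fold minimum, and 1 in the second without the filter; the cause was not tested. Leaving out 1 library gave 1935 to 2693, 63 to 86 and 2239 to 3276 genes and 2 to 3, 0 to 0 and 1 to 2 members. Attached replicate 3 (1935 and 2381 genes), suspended vehicle replicate 2 (1951) and AT-0174 replicate 1 (2239) lowered the counts against attached cells by over 1.5 times, and in AT-0174 against vehicle each library but suspended vehicle replicate 2 did so (63 to 70).

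Directions turned only in values that passed no test. With length-scaled counts *BCL2* came to 0.00 and *BAX* to 0.07 in suspension, *BAX* to -0.05 with AT-0174 against vehicle and 0.03 against attached cells, and *BMF* to -0.11 against attached cells. With 1 library left out, *BMF* ran from -0.19 to 0.03 in suspension and from -0.08 to 0.15 with AT-0174 against attached cells, and with AT-0174 against vehicle *BAK1* ran from -0.03 to 0.06, *BBC3* from -0.09 to 0.10 and *BCL2L1* from -0.05 to 0.00. *BBC3* in that comparison was 0.00 with no filter and with a replicate block. Same-numbered libraries shared only a number (correlations of their deviations from -0.07 to 0.05); with the replicate block 3250, 146 and 3677 genes and 3, 0 and 1 members were called. Without the mitochondrial genome, an alternative chosen after seeing the data, 3287, 129 and 3694 genes and 3, 0 and 1 members were called.

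Of 30 levels per length, 11 moved by over 1 SD with TMM-scaled counts per effective length and 22 without the mitochondrial genome. The rest of the 150 refitted levels left out 1 of 3 libraries. That cannot move a mean by 1 SD, so these levels were no test. Of 78 transcript shares, 33 moved by over 1 SD when read counts replaced TPM. The 3 libraries a group and the 5 to 138 counts at *BCL2*, *BBC3* and *PMAIP1* limit what could be seen at these genes.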
